A study of Mus musculus with 7 samples.

Results

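The axon guidance ligands and receptors comprised 68 of the 27998 genes in the count table, selected by gene name as every Eph receptor (14), ephrin (8), semaphorin (20), plexin (9), neuropilin (2), Robo receptor (4), Slit (3), netrin (3) and netrin receptor (5). They were examined in single-cell RNA sequencing (scRNA-seq) of oligodendrocyte lineage cells (OLCs) sorted from the neocortex of P90 mice of both sexes on a mixed C57BL/6-B6CBA background. The sample labels give the motor and cingulate cortex as the dissected region, which the paper's methods name for the P0 samples. Control animals were Emx1-Cre:Sox10-GFP-TdTom, in which a Sox10-driven reporter turns from GFP to TdTom wherever Emx1-Cre was active, so that TdTom+ cells are of dorsal origin (control dOLCs) and GFP+ cells of ventral origin (control vOLCs). Ablated animals carried the same alleles together with Sox10-GFP-DTA, diphtheria toxin fragment A under Sox10, which removes dorsally derived OLCs, and their GFP+ cells are the ectopic vOLCs that occupy the cortex instead. Each of the 3 conditions was 1 library, made from 4 control animals (both control libraries) and 2 ablated animals whose cells were not told apart. No test between conditions was therefore possible, and the 95% intervals given below cover counting error only. The reporter and the toxin both depend on Emx1-Cre activity, so a dorsally derived cell in which Cre had not acted would also be GFP+.

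Axon guidance molecules steer growing axons and migrating cells by attraction or repulsion. Eph receptors are tyrosine kinases that bind membrane-bound ephrins on neighbouring cells, and the contact can signal in both cells. Semaphorins signal through plexins, with neuropilins as co-receptors for the secreted class; netrins act through Dcc and the Unc5 receptors, and Slits act through Robo receptors. In the oligodendrocyte lineage these systems are known for guiding the dispersal of oligodendrocyte progenitor cells (OPCs) and for contact between oligodendrocytes and axons.

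Promoter sequences are shown for the 4 members around which the comparisons below turn: Ephb1 and Plxnb3, an Eph receptor and a plexin among the 4 members that were lower in ectopic vOLCs than in both controls over pooled MOL5/6 cells, and Unc5b and Ephb3, the netrin receptor and the Eph receptor that stood highest in control vOLCs in MOL5/6 and in OPCs. Each runs from 250 bases before to 50 bases after the transcription start in RefSeq (GRCm38.p6), 5′ to 3′ on the strand of the gene, with CG dinucleotides in capitals. The intervals are chr9:102354644-102354943 for Ephb1 (minus strand), chr10:60831532-60831831 for Unc5b (minus strand), chrX:73756853-73757152 for Plxnb3 (plus strand) and chr16:21204545-21204844 for Ephb3 (plus strand).
Ephb1: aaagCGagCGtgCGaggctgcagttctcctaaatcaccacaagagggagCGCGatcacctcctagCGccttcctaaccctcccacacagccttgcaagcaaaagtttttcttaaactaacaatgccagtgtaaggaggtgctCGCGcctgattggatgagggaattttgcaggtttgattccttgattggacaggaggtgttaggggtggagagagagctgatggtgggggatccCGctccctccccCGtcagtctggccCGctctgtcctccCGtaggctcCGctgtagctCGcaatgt
Unc5b: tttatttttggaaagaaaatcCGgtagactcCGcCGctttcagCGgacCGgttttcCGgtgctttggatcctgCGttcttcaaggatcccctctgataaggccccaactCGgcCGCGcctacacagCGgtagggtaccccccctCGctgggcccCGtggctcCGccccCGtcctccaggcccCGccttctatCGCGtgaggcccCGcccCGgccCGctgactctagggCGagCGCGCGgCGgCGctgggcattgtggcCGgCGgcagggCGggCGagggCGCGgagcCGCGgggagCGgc
Plxnb3: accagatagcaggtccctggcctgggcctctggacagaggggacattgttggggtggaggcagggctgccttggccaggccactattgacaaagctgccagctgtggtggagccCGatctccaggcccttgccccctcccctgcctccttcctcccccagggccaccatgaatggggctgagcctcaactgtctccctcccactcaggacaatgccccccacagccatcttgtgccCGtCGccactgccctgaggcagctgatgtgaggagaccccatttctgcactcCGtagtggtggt
Ephb3: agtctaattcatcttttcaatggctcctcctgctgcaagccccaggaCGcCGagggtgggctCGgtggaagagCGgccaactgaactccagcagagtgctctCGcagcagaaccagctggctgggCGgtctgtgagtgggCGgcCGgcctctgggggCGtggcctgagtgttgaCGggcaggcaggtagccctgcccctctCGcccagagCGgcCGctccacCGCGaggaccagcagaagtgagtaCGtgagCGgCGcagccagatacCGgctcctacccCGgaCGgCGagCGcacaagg

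The 4 promoters differed in their CG content. Unc5b held 36 CG dinucleotides, a number reached by 6.23% of 32851 mouse promoters of the same length, and Ephb3 held 23 (21.5% of promoters hold as many). Ephb1 held 14 (36.3%) and Plxnb3 held 4 (68.6%). The median was 21 over the 58 members with a promoter in the table and 7 over all promoters. The letters ACAAAG, the core recognised by SOX factors, occurred on either strand in the Plxnb3 window and not in the other 3 windows. They occurred in 10 of the 58 members' promoters (17.2%) and in 18.7% of all promoters, so the families did not stand out by these letters.

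Clusters were those of the authors: OPCs, committed precursors with newly formed and early myelin-forming oligodendrocytes (COP/NFOL/MFOLa), later myelin-forming cells (MFOLb) and mature oligodendrocytes (MOL1, MOL2a, MOL2b and 4 subclusters of MOL5/6); an eleventh cluster of 31 cycling OPCs was left out. The control dOLC, control vOLC and ectopic vOLC libraries held 5804, 925 and 2562 cells, with a median of 3489.5, 5022 and 5318.5 unique molecular identifiers (UMIs) per cell. OPCs numbered 853, 121 and 330 cells, and MOL5/6 3777, 561 and 1842 cells. The MOL5/6 cells were unevenly spread over their subclusters: 23.9%, 48.5% and 94.3% lay in subclusters a and d. The OPC markers (Pdgfra, Cspg4, Vcan, Ptprz1 and C1ql1) summed to between 8471 and 10680 counts per 1000000 UMIs (CPM) in OPCs and to between 52.3 and 122 CPM in MOL5/6. Markers of mature oligodendrocytes (Mog, Mag, Mobp, Mal, Opalin, Apod and Trf) were found in OPCs at 19.7%, 9.13% and 7.47% of their MOL5/6 level in the 3 libraries, which are kept in this order throughout. None of the 7 was at 0. The microglial list reached at most 2.53 CPM in either cell type, with 3, 3 and 4 of its 4 genes at 0 in OPCs. The neuronal list (Snap25, Syt1, Meg3 and Rbfox3) summed to 1090, 1262 and 1183 CPM in OPCs, with Rbfox3 at 0 in both vOLC libraries, and the astrocyte list (Aqp4, Gja1, Slc1a3 and Aldoc) to 630, 633 and 691 CPM, with Gja1 at 0 in control vOLCs. In MOL5/6 the neuronal list stood at 18.3, 7.88 and 10.4 CPM and the astrocyte list at 191, 153 and 145 CPM. The endothelial list reached at most 17.7 CPM and the mural list at most 0.832 CPM in OPCs or MOL5/6. The part of these other cell types in the values below was not tested.

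Levels are given as CPM from the UMIs of each cell type within a library, added up before division. A member passed the filter when it had at least 50 UMIs and a UMI in at least 10% of cells; 26 of the 68 members did so in OPCs (23), MOL5/6 (13) or COP/NFOL/MFOLa (9). The other 42 were too sparse to compare. Among these, Epha6, Epha8, Ntn5, Sema3f and Sema3g had no UMI in 9291 cells, a count of 0 that allows up to 3 UMIs, and 5 more had 1 to 3 UMIs. Sema4c had the most UMIs of the sparse members (589), and the highest level among them was 64.2 CPM, for Sema4f. The whole Slit family was in this group, with 93 UMIs for Slit2, 37 for Slit1 and 2 for Slit3. The netrin receptor Dcc, with 159 UMIs, was in it too, whereas its partner receptors Unc5b and Unc5c passed.

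Levels in OPCs were set against those in MOL5/6. Of 25 members past the filter in either cell type, 13 were more than 2-fold higher in OPCs in all 3 libraries (25.3% of 7139 genes were) 4 were more than 2-fold higher in MOL5/6 in all 3 (7.61% of genes), and 8 were neither. Of the 13, 12 passed the filter in OPCs and not in MOL5/6, so they entered the comparison only through the cell type in which they were high, and their count supports nothing; Nrp2 passed in both. Of the 4, Efna1 passed in MOL5/6 alone and the other 3 in both. The clusters were built from the same cells, so these differences describe the clusters and were not tested. The Eph receptor Epha5 varied little between the libraries in OPCs, with control dOLCs at 265 CPM, control vOLCs at 253 and ectopic vOLCs at 281, against 9.50, 11.0 and 8.42 CPM in MOL5/6. All 3 OPC values lay far above all 3 MOL5/6 values. Ntn1, a secreted netrin, was found mainly in OPCs, with 282, 50 and 85 UMIs there and 21, 1 and 8 UMIs in the larger MOL5/6 population.

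Of the semaphorins, Sema5a, Sema5b, Sema3d and Sema6b were higher in OPCs, and none was more than 2-fold higher in MOL5/6. Sema5b, a transmembrane semaphorin with thrombospondin repeats, had 159, 48 and 48 UMIs in OPCs and 10, 4 and 4 in MOL5/6, and its relative Sema5a stood at 81.5, 86.1 and 59.9 CPM in OPCs against 5.19, 4.11 and 2.84 CPM. The secreted Sema3d was at 120.0, 165 and 141 CPM in OPCs and at 9.10, 10.6 and 8.23 CPM in MOL5/6, and Sema6b was at 36.6, 40.5 and 41.6 against 1.75, 2.05 and 0.757 CPM. For each of these 4 genes the lowest OPC library was above the highest MOL5/6 library. They were named for being higher in OPCs in each library, so this adds no support. The transmembrane Sema6a and Sema6d and the membrane-anchored Sema7a were instead present at both stages, with log2 ratios of OPCs over MOL5/6 between -0.80 and -0.03 in the 3 libraries.

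Among the receptors of semaphorins, Plxna3, Plxnb2 and the neuropilin Nrp2 were higher in OPCs, while Plxnb1 and Plxnb3 did not pass 2-fold in all 3 libraries. For Plxnb1 the log2 ratio of OPCs over MOL5/6 was 0.74, 1.12 and 1.12. Nrp2 was at 54.5, 91.2 and 53.2 CPM in OPCs and at 17.2, 29.1 and 20.8 CPM in MOL5/6. Plxnb2 was at 56.8, 60.8 and 48.2 against 9.30, 3.77 and 3.97 CPM. The Slit receptor Robo1 (31.2, 55.7 and 33.3 against 4.04, 4.45 and 2.18 CPM), the Eph receptors Ephb3 and Ephb6 and the ephrin Efnb1 completed the OPC group. For the ephrin Efnb1 the log2 ratio of OPCs over MOL5/6 was the smallest of these 4 genes, between 1.83 and 2.53 in the 3 libraries.

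The 4 members higher in MOL5/6 were the ephrins Efnb3 and Efna1, the Eph receptor Ephb1 and the netrin receptor Unc5b. Efnb3, a transmembrane ephrin that can signal back into the cell that carries it, stood at 170.3, 98.8 and 74.9 CPM in OPCs and at 772, 802 and 751 CPM in MOL5/6. Unc5b, a receptor that mediates repulsion by netrins, stood at 93.3, 38.0 and 32.4 CPM in OPCs and at 728, 1105 and 612 CPM in MOL5/6. Efna1, an ephrin held in the membrane by a lipid anchor, was at 16.8, 17.7 and 14.1 CPM against 40.8, 46.6 and 33.5 CPM. Summed over each family, the Eph receptors were lower in MOL5/6 (239, 211 and 136 CPM) than in OPCs (464, 575 and 433 CPM), whereas the ephrins were higher (849, 881 and 823 against 263, 233 and 183 CPM). Without Efnb3 the ephrins were lower in MOL5/6 (76.6, 78.4 and 72.4 CPM) than in OPCs (92.9, 134 and 108 CPM), and without Epha5 the Eph receptors were at 229.6, 200.3 and 128 CPM in MOL5/6 against 199.6, 322 and 152 CPM in OPCs, higher in MOL5/6 in control dOLCs and lower in the other 2 libraries. The netrins, of which Ntn1 gave most, summed to 113.5, 134 and 74.0 CPM in OPCs and to 1.55, 0.342 and 0.851 CPM in MOL5/6.

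**Figure D1:**
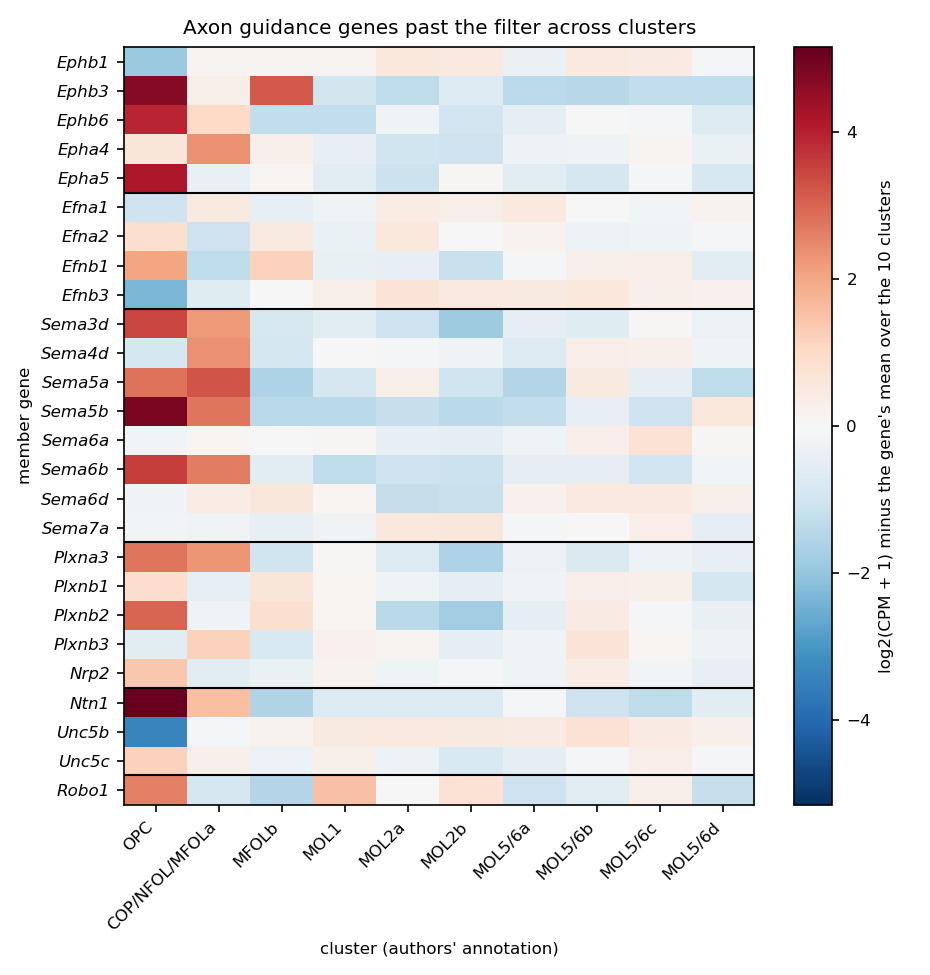
Level of the 26 members past the filter (rows, grouped into Eph receptors, ephrins, semaphorins, plexins with neuropilin, netrin with its receptors, and Robo) in 10 clusters (columns), as log2(CPM + 1) of the mean of 3 libraries minus the row's own mean. Colours are read along a row: Ntn1, Sema5b, Ephb3 and Epha5 are reddest in OPCs, Epha4 and Sema4d are reddest in COP/NFOL/MFOLa, and Unc5b and Efnb3 are blue in OPCs and pale red in the mature clusters.

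COP/NFOL/MFOLa cells were compared with OPCs and MOL5/6 after the levels had been seen. Markers of that stage (Bmp4, Neu4, Gpr17, Enpp6 and Tcf7l2) summed to 2289, 3511 and 2417 CPM in COP/NFOL/MFOLa, against 1109, 1391 and 1001 CPM in OPCs. In COP/NFOL/MFOLa (76, 13 and 22 cells), 2 of 9 members past the filter were more than 2-fold above both OPCs and MOL5/6 in all 3 libraries, against 2.72% of 2315 genes. They were Epha4 and Sema4d, of which Sema4d passed the filter in COP/NFOL/MFOLa alone and so entered only through the cluster in which it was high. Epha4, a receptor for ephrins of both classes, was at 134, 298 and 181 CPM there, at 51.8, 83.6 and 44.9 CPM in OPCs and at 33.6, 43.5 and 26.2 CPM in MOL5/6. Sema4d, a transmembrane semaphorin that binds B-class plexins, was at 70.2, 103 and 100.4 CPM, at 11.8, 7.60 and 6.65 CPM in OPCs and at 20.0, 12.7 and 10.2 CPM in MOL5/6. These levels rest on 67, 26 and 27 UMIs for Epha4 and 35, 9 and 15 for Sema4d. Plxnb3, a B-class plexin, was also highest at this stage (239, 218 and 228 CPM) and missed the criterion in control vOLCs against MOL5/6, where the log2 ratio was 0.83. By contrast, the receptor Unc5b had already reached 435, 792 and 469 CPM in COP/NFOL/MFOLa.

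Among mature cells, Sema6d separated the MOL2a cluster, in which the MOL2 markers Klk6 and Hopx summed to 571, 1496 and 1468 CPM, from MOL5/6, in which they summed to 25.0, 60.3 and 28.4 CPM. It was more than 2-fold lower in MOL2a in all 3 libraries, which held for 0.444% of 6303 genes, with log2 ratios of -1.35, -1.80 and -1.69. Its levels in MOL2a were 70.9, 67.3 and 37.8 CPM and those in MOL5/6 180.5, 234 and 122 CPM. In MOL2b, which was not part of this comparison, Sema6d was also low, at 56.3, 95.7 (from 5 UMIs) and 33.6 CPM. No other member passed 2-fold in all 3 libraries here, in which 1.16% of genes were higher in MOL2a. This comparison too was added after the levels had been seen.

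In OPCs, no member was more than 1.5-fold higher in ectopic vOLCs than in control dOLCs (5.34% of 6110 genes were) and 6 of 22 were more than 1.5-fold lower (5.79% of genes): Ephb1, Unc5b, Efnb3, Plxna3, Ntn1 and Sema5b. Ephb1 (a UMI in 3.03% of ectopic and 13.2% of control dOLC cells) and Plxna3 (6.67% and 10.1%) passed the filter only through control dOLCs, in which they were high, so their part in this count supports nothing. The median log2 ratio was -0.28 over the 22 members and 0.08 over all genes. Against control vOLCs, none of 20 members was higher (18.0% of 5721 genes) and 10 were lower (9.77%): Nrp2, Epha4, Plxnb3, Unc5c, Plxnb1, Ntn1, Ephb3, Sema5b, Robo1 and Sema6a. The median log2 ratio there was -0.57, beside 0.04 over all genes. Apart from Ephb3, Sema5b and Ntn1, these ratios lay between -0.95 (Plxnb1) and -0.62 (Unc5c), and that of Robo1 (-0.74, -1.53 to 0.08) had an interval that included 0. Of the 10, Plxnb1, Ntn1, Ephb3 and Sema5b passed 1.5-fold under all 8 alternatives, and Unc5c under 5. The alternative without a filter leaves a ratio unchanged, so it passes by construction in this and later counts of alternatives for genes past 1.5-fold. On thinning to equal depth, the ratio of Nrp2 turned from -0.78 to 0.20 and that of Epha4 went from -0.90 to -0.25. The thinning was a single random draw to 1000 UMIs per cell, which left fewer UMIs of either gene. With the mean over cells the ratios were -0.78 for Nrp2 and -0.70 for Epha4. The 2 comparisons share the ectopic library. Ntn1 and Sema5b were lower against both controls, 2 of 20 members (1.69% of 5667 genes), and none was higher against both (2.86% of genes). That count was 3 with TMM scaling (1.59% of genes) and with size factors (1.64%), both other scalings of the libraries, which added Plxnb1, 6 of 56 with no filter (6.91%), 1 with the mean over cells (Ntn1; 1.73%), 0 of 2 on thinning (1.34%) and 0 with the length adjustment described below (1.70%); it stayed 2 under the other 2 alternatives.

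Ephb1 had few UMIs in the OPCs of both vOLC libraries. Control dOLCs had 132 UMIs, control vOLCs 17 and ectopic vOLCs 11, that is 50.3, 43.1 and 9.15 CPM. The 2 control libraries were close and the ectopic library was low. Against control dOLCs, the log2 ratio was -2.46 (95% interval -3.50 to -1.57) for ectopic vOLCs and -0.22 (-1.05 to 0.51) for control vOLCs, which turned to 0.11 without the cells with the highest doublet scores. Ectopic and control vOLCs together had too few UMIs for the filter. Ephb1 is a gene of mature cells, and its OPC level was 27.0%, 29.2% and 9.54% of that in MOL5/6, while the mature oligodendrocyte markers stood at 19.7%, 9.13% and 7.47%; the part of mature transcripts in the OPC value was not tested. The ratio was between -2.47 and -2.08 under every alternative processing tried, and -2.08 without the cells with the highest doublet scores.

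Unc5b and Efnb3 were high in control dOLC OPCs relative to both vOLC libraries. Unc5b had 245, 15 and 39 UMIs (93.3, 38.0 and 32.4 CPM), with a log2 ratio of -1.52 (-2.05 to -1.03) for ectopic vOLCs and of -1.30 (-2.15 to -0.55) for control vOLCs, each against control dOLCs. Efnb3 had 447, 39 and 90 UMIs (170.3, 98.8 and 74.9 CPM), with ratios of -1.18 (-1.53 to -0.86) and -0.79 (-1.30 to -0.31). In both genes the order followed that of the mature markers, of which control dOLC OPCs held the most (5152, 2625 and 2267 CPM), and the part of mature transcripts was not tested. The top 6% of doublet scores, taken library by library, included 43 OPCs of control dOLCs (5.04%), none of control vOLCs and 8 of ectopic vOLCs (2.42%). Without them the Unc5b ratios were -0.65 and -0.43 and the Efnb3 ratios -0.81 and -0.38, so that the control vOLC values no longer passed 1.5-fold.

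The OPC genes Ntn1 and Sema5b were not high in mature cells. For Ntn1, control dOLCs were at 107 CPM, control vOLCs at 127 and ectopic vOLCs at 70.7. The ectopic log2 ratios were -0.60 (-0.97 to -0.25) relative to control dOLCs and -0.84 (-1.36 to -0.31) relative to control vOLCs. Sema5b was at 60.6, 122 and 39.9 CPM, with ratios of -0.60 (-1.10 to -0.13) and -1.61 (-2.22 to -0.999). The ectopic library was the lowest of the 3 for both genes, and each ratio against control dOLCs lay just past the 1.5-fold limit of 0.585 on the log2 scale, and short of it under some alternatives (between -0.72 and -0.54 for Ntn1, between -0.66 and -0.53 for Sema5b). Plxna3, an A-class plexin, had 93, 15 and 23 UMIs and a ratio of -0.89 (-1.62 to -0.22) against control dOLCs.

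Several members were highest in control vOLC OPCs. Control vOLCs against control dOLCs had 6 of 23 members more than 1.5-fold higher (10.8% of 5863 genes), namely Ephb3, Sema5b, Robo1, Nrp2, Epha4 and Unc5c, and 3 lower (12.1%), namely Unc5b, Efnb3 and Ephb6. The median log2 ratio was 0.31 over members and 0.03 over all genes. Ephb3, an Eph receptor for B-class ephrins, had 112, 57 and 62 UMIs in the 3 libraries, or 42.7, 144 and 51.6 CPM. The control vOLC library stood well above the other two, which were close to each other. Its log2 ratio was 1.76 (1.27 to 2.23) for control vOLCs against control dOLCs, -1.48 (-2.03 to -0.94) for ectopic against control vOLCs and 0.27 (-0.20 to 0.73) for ectopic vOLCs against control dOLCs. For Sema5b the first of these was 1.01 (0.51 to 1.48). The control vOLC OPCs were only 121 cells, with 394731 UMIs, and each of the other higher members rested on 22 to 50 UMIs in them. Besides Ephb3 and Sema5b, their ratios were 0.84 (0.09 to 1.53) for Robo1, 0.74 (0.17 to 1.28) for Nrp2, 0.69 (0.10 to 1.25) for Epha4 and 0.62 (0.15 to 1.07) for Unc5c. On thinning to equal depth the ratio of Nrp2 turned to -0.048 and those of Epha4 and Robo1 went to 0.17 and 0.33. With the mean over cells the ratios were 0.72 for Nrp2, 0.59 for Epha4 and 0.915 for Robo1. The ratio of Unc5c passed 1.5-fold under 3 of 8 alternatives and was 0.49 with the length adjustment. Robo1 (9.03% of control dOLC cells) passed the filter only through control vOLCs, and Ephb6 (9.09% of control vOLC cells) only through control dOLCs. Ephb6, at 41.9, 27.9 and 34.9 CPM, had a ratio of -0.59 (-1.63 to 0.31) from 11 control vOLC UMIs, which turned to 0.36 when cells were thinned to equal depth.

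Epha5, Sema3d, Sema6b and Efna2 did not pass 1.5-fold in any of the OPC comparisons. For Epha5, ectopic vOLCs gave log2 ratios of 0.09 (-0.10 to 0.28) to control dOLCs and 0.15 (-0.18 to 0.49) to control vOLCs. Sema3d gave 0.24 (-0.04 to 0.51) and -0.22 (-0.64 to 0.22). The intervals for Epha5 leave room for less than a 1.5-fold difference in either direction, whereas those of Sema6b (-0.80 to 0.95 against control vOLCs) are too wide for such a statement.

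**Figure D2:**
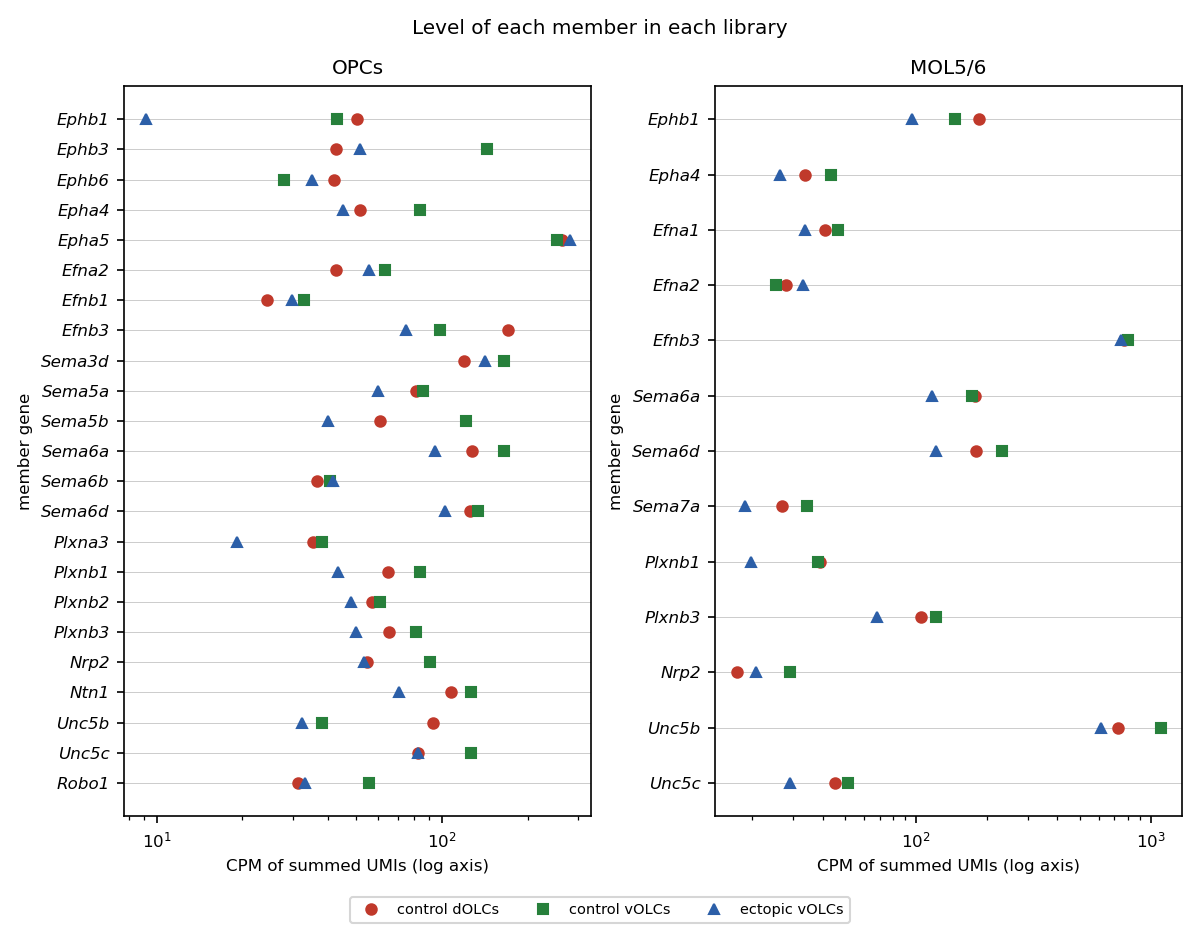
Level of each member past the filter in OPCs (left, 23 members) and MOL5/6 (right, 13 members), in CPM of summed UMIs on a log axis, with 1 point for each of the 3 libraries. Ectopic vOLCs (blue triangles) are the lowest point for Ephb1 in both panels, control vOLCs (green squares) stand apart for Ephb3 in OPCs and for Unc5b in MOL5/6, and the 3 points for Epha5 in OPCs and for Efnb3 in MOL5/6 nearly coincide.

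In MOL5/6, no member was more than 1.5-fold higher in ectopic vOLCs than in control dOLCs (1.13% of 5218 genes) and 5 of 13 were lower (11.5%): Ephb1, Plxnb1, Unc5c, Plxnb3 and Sema6a. With TMM scaling, which moved the median of all genes in this comparison from -0.03 to 0.14, Ephb1 and Plxnb1 remained, 2 of 13, as against 6.59% of all genes lower and 3.72% higher with that scaling. Against control vOLCs none was higher (1.46% of 5496 genes) and 8 were lower (12.4%): Ephb1, Plxnb1, Unc5c, Plxnb3, Epha4, Sema6d, Unc5b and Sema7a. The median log2 ratio was -0.52 and -0.73 over members, beside -0.03 and -0.02 over all genes. Ephb1, Plxnb1, Plxnb3 and Unc5c were lower against both controls, 4 of 13 members (6.60% of 5211 genes), and none was higher against both (0.518%). That count depended on the processing: Plxnb1 alone was lower against both with TMM (3.36% of genes) and with size factors (3.07%), none was with the length adjustment described below (1.69%), and 7 were with the mean over cells (8.33%). The control libraries differed less: Nrp2 and Unc5b were higher in control vOLCs than in control dOLCs (2.56% of 5195 genes), none was lower (0.731%), and the median was 0.19. Nrp2 had a ratio of 0.76 (0.39 to 1.12) there, which was 0.33 on thinning, and passed the filter only through control vOLCs (12.7% of cells against 6.33%).

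Ephb1 was again lowest in ectopic vOLCs. Control dOLCs had 2760 UMIs, control vOLCs 430 and ectopic vOLCs 1014, which gave 186, 147 and 95.9 CPM. The ectopic level had a log2 ratio of -0.96 (-1.06 to -0.85) to control dOLCs and of -0.62 (-0.78 to -0.45) to control vOLCs. The second ratio passed 1.5-fold under 4 of 8 alternatives, among them no filter, which leaves it unchanged, and was -0.47 with TMM scaling. Within MOL5/6a, b, c and d the ratio to control dOLCs was -0.49, -0.49, -0.55 and -0.54, smaller than in the pooled cells. In control dOLCs the Ephb1 level was 202 and 220 CPM in MOL5/6b and c and 121 and 144 CPM in MOL5/6a and d, and only 42 and 63 ectopic cells lay in b and c. The intervals were -0.77 to -0.22 in MOL5/6a and -0.72 to -0.37 in MOL5/6d, which hold most of the ectopic cells, while that in MOL5/6b, with 42 ectopic cells, included 0. Against control vOLCs the subcluster ratios were -0.29, -0.52, -0.13 and -0.33, and each interval included 0. Ectopic vOLCs had the lowest Ephb1 level of the 3 libraries in 10 of 10 clusters, by a margin under 1 CPM in COP/NFOL/MFOLa (134.41 CPM in control dOLCs, 133.88 in ectopic vOLCs). The clusters are parts of the same 3 libraries and not separate observations. For this and the cluster counts of Sema6d and Unc5b below, the share over all genes is not given.

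Efnb3, a ligand of EphB receptors, did not follow. In MOL5/6 the ectopic Efnb3 ratio was -0.04 (-0.08 to 0.00) to control dOLCs and -0.10 (-0.16 to -0.03) to control vOLCs, from 11458, 2343 and 7938 UMIs. These intervals leave room for differences of at most 0.16 on the log2 scale, and with TMM scaling the ratios turned to 0.13 and 0.05. Efna1 gave -0.28 (-0.48 to -0.09) and -0.48 (-0.77 to -0.18), and Efna2 0.24 (0.03 to 0.45) and 0.38 (0.02 to 0.76), neither past 1.5-fold. The receptor Epha4, at 33.6, 43.5 and 26.2 CPM, was lower than in control vOLCs (-0.73, -1.04 to -0.42). That ratio passed 1.5-fold under 5 of 8 alternatives and was -0.38 with the length adjustment.

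Plxnb1 and Plxnb3, B-class plexins and so receptors for transmembrane semaphorins, were lower in the ectopic library over the pooled MOL5/6 cells. The remaining B-class plexin, Plxnb2, did not pass the filter there and was at 9.30, 3.77 and 3.97 CPM. Plxnb1 was at 38.9, 38.4 and 19.9 CPM, with log2 ratios of -0.97 (-1.20 to -0.74) and -0.95 (-1.29 to -0.61). The 2 controls nearly coincided. Plxnb3 was at 105, 122 and 68.2 CPM, with ratios of -0.62 (-0.75 to -0.49) and -0.84 (-1.03 to -0.66). Unc5c, a netrin receptor, was at 44.9, 51.4 and 28.9 CPM, with ratios of -0.64 (-0.84 to -0.44) and -0.83 (-1.11 to -0.54). Adjusted for transcript length, as described below, the ratios were -0.21 and -0.49 for Plxnb3 and -0.04 and -0.37 for Unc5c, none of them past 1.5-fold. Against control dOLCs, Plxnb3 passed under 5 and Unc5c under 3 of 8 alternatives. Within MOL5/6a, b, c and d the Plxnb3 ratio was -0.35, 0.64, 0.10 and -0.37 to control dOLCs and -0.53, 0.27, 0.01 and -0.81 to control vOLCs, so that in b and c, with 27 and 35 ectopic UMIs, it was not lower. To control dOLCs, Plxnb1 was at -0.86, -0.73, -0.40 and -0.23, with an interval below 0 in MOL5/6a alone. Unc5c was at -0.28, -0.47 and -0.15 in a, c and d, each with an interval that included 0, with 0 UMIs in the 42 ectopic cells of MOL5/6b and 292 in the control dOLCs of that subcluster. The part of the uneven spread over subclusters in the pooled ratios of these 3 genes was not tested.

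Of the semaphorins in MOL5/6, Sema6a, Sema6d and Sema7a stood lowest in the ectopic library over the pooled cells. Sema6d, a ligand of A-class plexins, was at 180.5, 234 and 122 CPM, with ectopic log2 ratios of -0.56 (-0.66 to -0.47) to control dOLCs and -0.93 (-1.07 to -0.80) to control vOLCs, and 0.37 (0.25 to 0.49) between the controls. It was lowest in ectopic vOLCs in 9 of 10 clusters and in 7 of 7 mature clusters. Its ratios to control dOLCs within MOL5/6a to d were -0.51, -0.63, -0.51 and -0.29, so that this gene was lower in each subcluster, though in MOL5/6b the interval reached 0.06. Sema6a was at 178, 174 and 117 CPM, with pooled ratios of -0.61 (-0.71 to -0.51), past 1.5-fold under 2 of 8 alternatives, and -0.57 (-0.73 to -0.42), but its ratios to control dOLCs within the subclusters lay between -0.33 and 0.16, each with an interval that included 0. To control vOLCs the Sema6a ratio was -0.52 (-0.77 to -0.27) in MOL5/6a and -0.63 (-1.04 to -0.19) in MOL5/6d. In b and c it was -0.33 and 0.05, with intervals that included 0. Sema7a, at 26.8, 34.2 and 18.7 CPM, gave -0.52 (-0.77 to -0.27) and -0.87 (-1.23 to -0.51) in the pooled cells. Within subclusters its ratio to control dOLCs was 0.11 in a, 0.20 in c and -0.11 in d, each with an interval that included 0. In b it had 0 ectopic UMIs, against 186 in control dOLCs and 42 in control vOLCs, with upper bounds of -0.23 and -0.66 for the ratios.

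**Figure D3:**
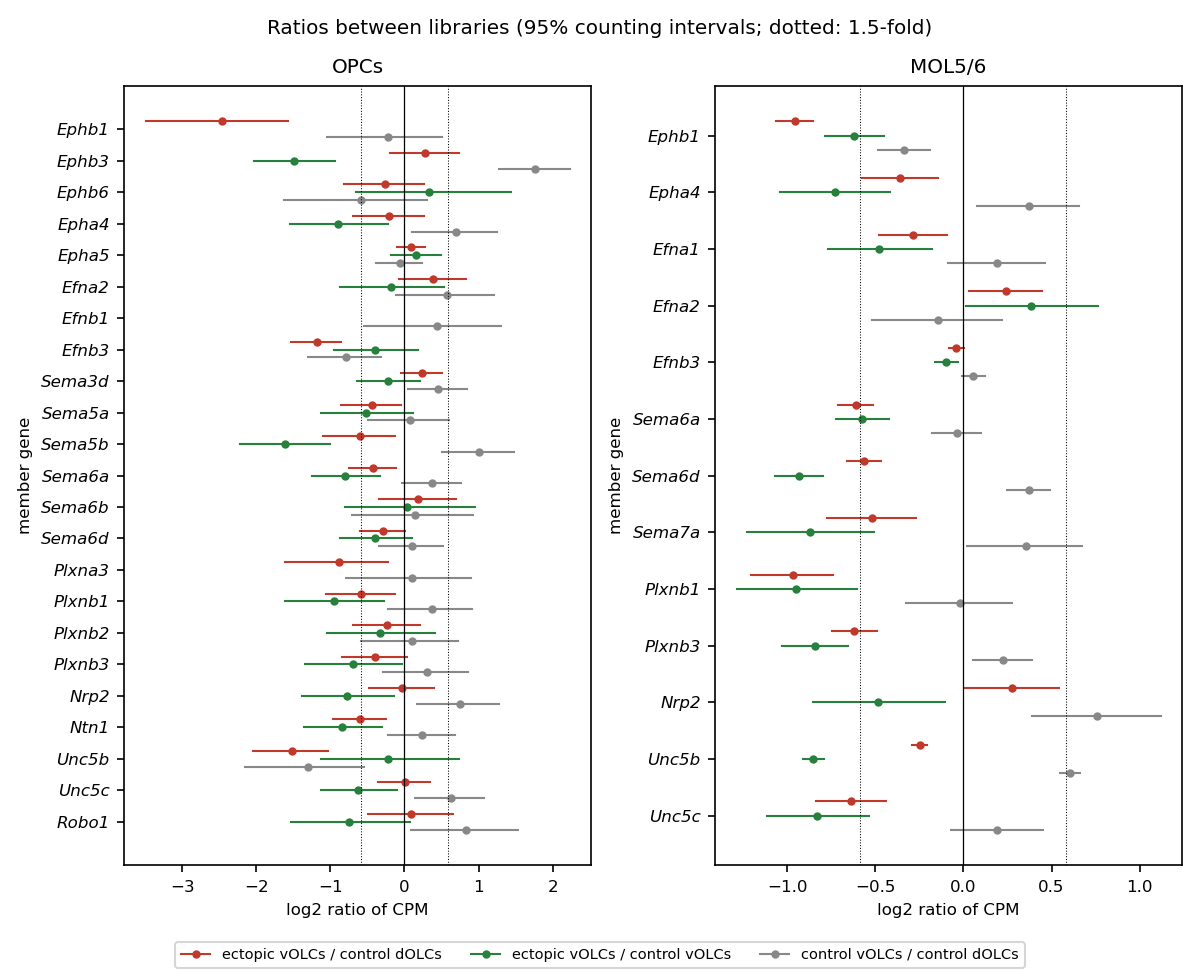
Log2 ratios of CPM between libraries in OPCs (left) and MOL5/6 (right) for members past the filter, with 95% counting intervals as lines and the 1.5-fold limits dotted. Ratios of ectopic vOLCs to control dOLCs are red, to control vOLCs green, and of control vOLCs to control dOLCs grey; in MOL5/6 most red and green points lie left of 0, while Efnb3 lies near 0 and the grey point of Unc5b lies at 0.60.

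Unc5b distinguished control vOLCs rather than ectopic vOLCs. In MOL5/6 it had 10796, 3226 and 6473 UMIs, or 728, 1105 and 612 CPM, and the log2 ratio of control vOLCs to control dOLCs was 0.60 (0.55 to 0.66). Ectopic vOLCs lay 0.85 below control vOLCs on the log2 scale (ratio -0.85, -0.91 to -0.79) and close to control dOLCs (-0.25, -0.29 to -0.20). Within MOL5/6a, b, c and d the ectopic level relative to control dOLCs was 0.10, -0.02, -0.18 and 0.02, and the ratio of control vOLCs to control dOLCs was 0.84, 0.52, 0.45 and 0.70. Control vOLCs had the highest Unc5b level in 7 of 7 mature clusters and in 9 of all 10, the exception being OPCs. Whether the ratio of 0.60 passed 1.5-fold depended on the processing, since it lay between 0.52 and 0.67 over the alternatives and passed in 6 of 8. Ectopic and control vOLCs were both GFP+, and the ablation, the library, the animals and the position of the cells in the cortex cannot be told apart.

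**Figure D4:**
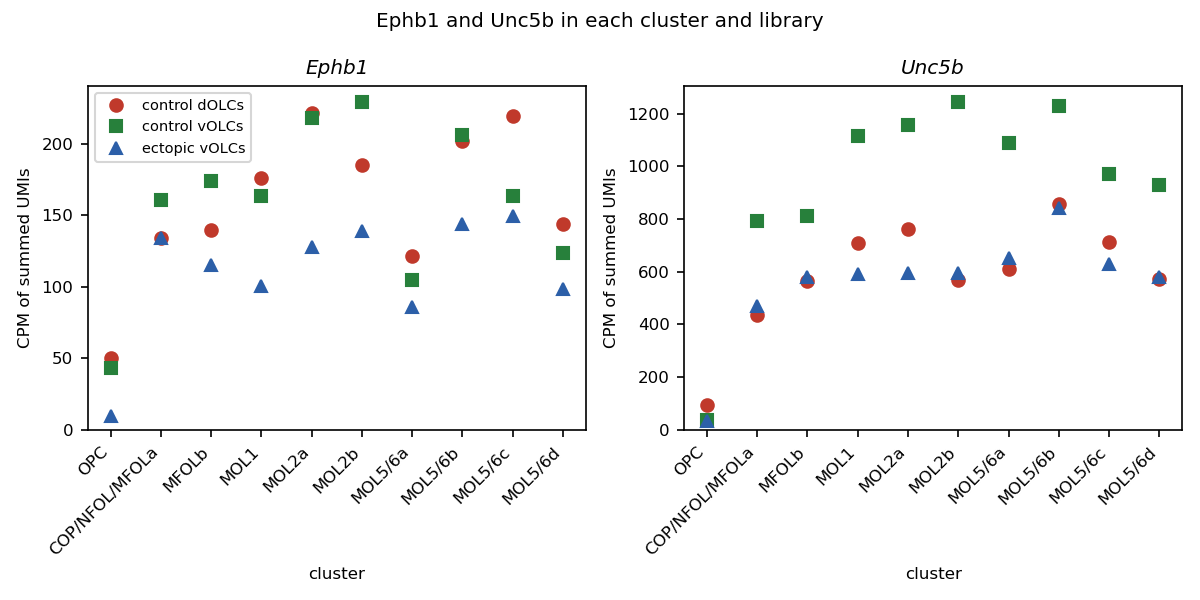
Ephb1 (left) and Unc5b (right) in CPM of summed UMIs (vertical axes from 0) in each of 10 clusters, with 1 point per library. Ectopic vOLCs (blue) are the lowest Ephb1 point in each cluster, and control vOLCs (green) are the highest Unc5b point in each cluster except OPCs.

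Transcript length moved with the ratios. Members past the filter had long transcripts, with a median longest transcript of 6217 bases in MOL5/6 against 3152 bases over all genes tested there, and 6318 against 3288 in OPCs. Across 5082 genes in MOL5/6, the log2 ratio for ectopic vOLCs over control dOLCs had a Spearman correlation of -0.526 with length, and against control vOLCs it was -0.498 over 5352 genes. In OPCs it was -0.347 and -0.387. These values describe genes of the same 3 libraries and are no test. Relative to the median of genes of like length, 2 of the 13 members were past 1.5-fold against control dOLCs in MOL5/6 (Ephb1 lower at -0.67, Nrp2 higher at 0.68), where 3.35% of all genes were lower and 2.66% higher. Nrp2 passed the filter there only through ectopic vOLCs, in which it was called higher, so its part in this count supports nothing. Against control vOLCs 1 of 13 was lower (Sema7a at -0.85; 5.33% of genes). In OPCs 4 of 22 were lower than in control dOLCs (6.14% of genes) and 5 of 20 lower than in control vOLCs (10.2%). Ephb1 and Plxna3 were among the 4 and passed the filter only through control dOLCs, so their part in that count supports nothing. Ephb1 in OPCs was hardly moved (-2.40), and Plxnb1 in MOL5/6 went from -0.97 to -0.38.

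**Figure D5:**
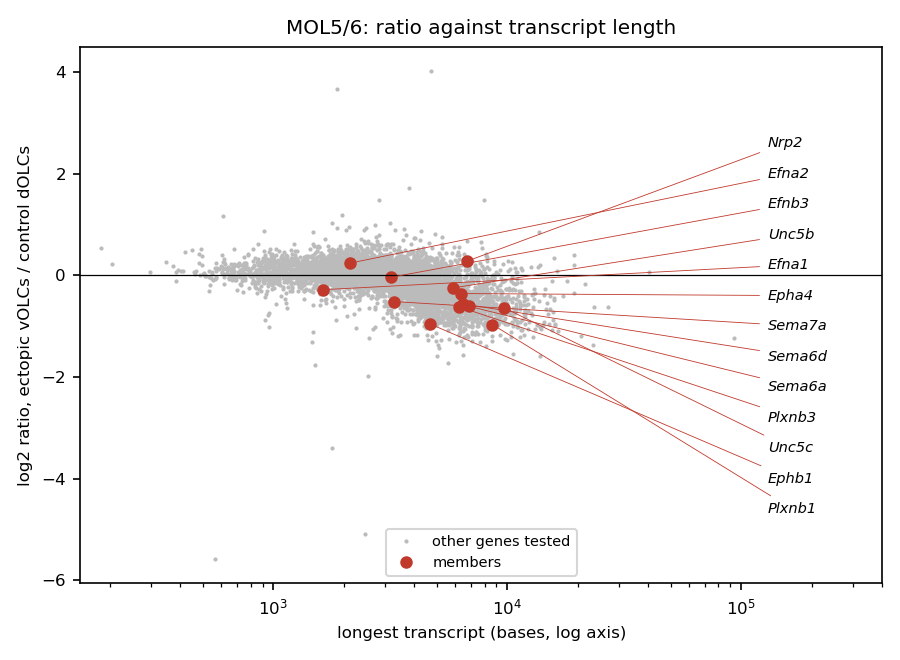
Log2 ratio for ectopic vOLCs over control dOLCs in MOL5/6 (vertical axis) against the longest annotated transcript in bases (log axis), with 1 point per gene tested and the 13 members in red. Genes with longer transcripts lie lower (Spearman correlation -0.526); Ephb1 lies below most genes of its length, and Plxnb1 and Unc5c lie among the longest transcripts.

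Downstream of the receptors, 51 effectors and co-receptors were listed, also with earlier results of these data known. In OPCs, 2 of 30 past the filter were more than 1.5-fold higher in ectopic vOLCs than in control dOLCs and 3 lower (5.34% and 5.79% of all genes), and against control vOLCs 3 of 27 were higher and 6 lower (18.0% and 9.77%). Vasp, a promoter of actin filament growth, was higher against both controls, at log2 ratios of 1.16 (0.55 to 1.76) and 1.42 (0.20 to 2.94, from 6 control vOLC UMIs). Crmp1, a collapsin response mediator, was higher too, at 0.75 (0.19 to 1.30) and 0.72 (-0.28 to 1.86). Both genes passed the filter only through ectopic vOLCs, in which they were high, so their part in these counts supports nothing. Dpysl2, the collapsin response mediator that relays semaphorin signals to microtubules, was lower against both in OPCs (-0.997 and -0.61) and in MOL5/6 (-0.86, -0.92 to -0.79, and -0.89, -0.98 to -0.80). Its levels in MOL5/6 were 496, 508 and 274 CPM. Neo1, a receptor for netrins and repulsive guidance molecules, was also lower at both stages, at -0.67 and -0.88 in OPCs and -0.75 and -0.62 in MOL5/6. Rgma, a ligand of Neo1, was lower against both controls in OPCs (-0.63 and -0.83), with -0.13 and -0.25 in MOL5/6.

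In MOL5/6, none of the 18 effectors and co-receptors tested against control dOLCs was higher and 8 were lower (1.13% and 11.5% of all genes), and none of 19 was higher and 6 were lower against control vOLCs (1.46% and 12.4%). Besides Dpysl2 and Neo1, the kinase Rock2 (-0.71 and -0.67), Arhgef12, an exchange factor that binds B-class plexins (-0.74 and -0.73), and the glypican Gpc1 (-0.86 and -1.09) were lower against both controls. TMM scaling raises all ratios of a comparison alike, as it took Ephb1 here from -0.96 to -0.79 and from -0.62 to -0.47. Neo1, Rock2 and Arhgef12 then no longer pass 1.5-fold against both controls, and in OPCs Dpysl2 no longer passes against control vOLCs. Effector ratios with the length adjustment are not given.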

How the data were processed

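Cells were sorted by fluorescence and sequenced on the 10x Genomics platform. Per the submitters' processing notes, Cell Ranger 2.1.1, Seurat 3 and 4.0 and build mm10 were used; the methods text names another Cell Ranger release. The authors deposited raw UMI counts per gene and cell barcode (10081 barcodes), and an annotation of the 9291 cells left after their filter, with cluster names and the mitochondrial percent of each cell, which the authors limited to 15. Whether doublets were removed before deposit is not given in the sources used here.

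Deposited counts were summed per library and cluster and divided by the summed UMIs (CPM). Ratios between libraries carry 95% intervals from the conditional exact binomial. Genes entered a comparison with 50 or more UMIs over both libraries and detection in 10% or more of the cells of either; called means past 1.5-fold between libraries, or past 2-fold in all 3 libraries between cell types. The members, marker lists and effector list were chosen with earlier results of these data known. Named genes were those past the filter, with full values for members past 1.5-fold against both controls, for Ephb1, Efnb3 and Sema6d, and for the members with the most UMIs in each family. Comparisons of COP/NFOL/MFOLa and MOL2a were added later.

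Alternatives were no filter, TMM (edgeR 4.0.16), size factors (DESeq2 1.42.0), the mean over cells, thinning to 1000 UMIs per cell, a mitochondrial limit of 10 percent, leaving out the highest 6% of Scrublet scores per library (scanpy 1.11.5), and subtracting the median ratio of genes in 20 bins of transcript length. Scrublet's own calls (44 cells, 0.474%) were too few to use, so doublets were kept. Across libraries, 39 barcode sequences occurred more than once. The calculation of ratios and intervals was tested on simulated counts. Other software was R 4.3.3, Python 3.11.15, numpy 2.4.6, scipy 1.17.1 and pandas 2.3.3. The 4 P0 samples, which mix genotypes, were not analysed here.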

Additional observations from a re-analysis of the deposited data

Results flagged for a closer look

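Unc5b went in opposite directions in the 2 cell types when control vOLCs were set against control dOLCs: its log2 ratio was -1.30 (-2.15 to -0.55) in OPCs and 0.60 (0.55 to 0.66) in MOL5/6. With 1 library per condition, the difference between the 2 cell types was not tested. The OPC value rests on 15 UMIs in 121 control vOLC cells and was -0.43 without the cells with the highest doublet scores, while the MOL5/6 value rests on 3226 UMIs and ranged from 0.52 to 0.67 over the alternatives.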

How the results depend on the processing

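No paired analysis was possible because the conditions had 1 library each, so no replicate could be left out either. Of 103 recomputed counts and medians, 79 stayed within 1.5 times the reported count or within the reported interval and 24 did not. Of 832 recomputed ratios of single members, 763 stayed within the counting interval of the reported ratio. These include the 104 ratios without a filter, which leaves the ratio of a gene unchanged, so they could not move. Among the 832, sign changed in 37, of which 34 were ratios short of 1.5-fold as reported (10 on thinning, 10 with the length adjustment). The 3 others had been past 1.5-fold, all on thinning and in OPCs: Nrp2 in ectopic against control vOLCs (0.20), and Nrp2 (-0.048) and Ephb6 (0.36) in control vOLCs against control dOLCs. The counts below are of members past 1.5-fold for ectopic vOLCs against control dOLCs, ectopic against control vOLCs, and control vOLCs against control dOLCs, in that order. Without a filter, which lets in members of few UMIs, they were 13, 29 and 26 in OPCs and 29, 28 (median log2 ratio -0.43) and 18 in MOL5/6, and 40 members passed 2-fold between OPCs and MOL5/6. On thinning to 1000 UMIs, which left 6, 2, 8, 6, 6 and 6 members past the filter, they were 2, 0 (median 0.13) and 4 in OPCs and 2, 4 and 0 in MOL5/6, and 8 of 12 members passed 2-fold between cell types. Adjusted for transcript length, 5 were past 1.5-fold in OPCs against control vOLCs, 2 in MOL5/6 against control dOLCs, and 1 (median -0.38) in MOL5/6 against control vOLCs. In MOL5/6 against control dOLCs, TMM and size factors each left 2 and the stricter mitochondrial limit left 3. For control vOLCs against control dOLCs in MOL5/6, the mean over cells left 1. The causes were not tested beyond these constructions. Depth limits control vOLCs most, with 394731 UMIs in OPCs.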
